A study of Mus musculus with 6 samples.

Results

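The genes described here carry sulfur from methionine to cysteine and handle hydrogen sulfide: *Mat2a*, *Ahcy*, *Cbs*, *Cth*, *Cdo1*, *Mpst*, *Sqrdl*, *Ethe1*, *Tst* and *Suox*. They were chosen by name, and every probe whose gene name on the array equals one of these symbols was taken, which gave 15 probes of 10 genes among 55681 probes that are not controls and 33519 array names. The set was proposed because *Cth* had been chosen on its lower level in HFD hearts of these same arrays, so that the differences between the diets at these genes are given as a description, and counts of how many passed a threshold are not used as a test of them. RNA came from whole hearts of male C57BL/6 mice that ate a standard chow diet (normal diet, ND, 3 hearts) or a high fat diet with 60% of its energy from fat (HFD, 3 hearts). Feeding began at 4 weeks of age and lasted 4 months in both groups, and the labels name no transgene or drug. Each heart was hybridised to 1 Agilent array in 1 colour (Cy3), and all 6 arrays lay on 1 slide. The question was which transcripts differed between hearts of the 2 diets.

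Methionine is activated to S-adenosylmethionine, gives up its methyl group and becomes homocysteine. In transsulfuration, cystathionine beta-synthase joins homocysteine to serine, and cystathionine gamma-lyase releases cysteine. Cysteine is then built into glutathione and protein, oxidised towards taurine and sulfate, or used to make hydrogen sulfide, a gas that relaxes blood vessels and has been studied as a protective signal in the heart. Mitochondria oxidise sulfide to persulfide, thiosulfate, sulfite and at last sulfate. Transsulfuration is best known from liver and kidney.

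The probes are single DNA strands of 60 bases, and their letters show which stretch of each transcript was read. Sequences are given for a probe of the gene with the largest difference and for a probe of each of the other genes read by a pair of agreeing probes, *Mat2a* and *Tst*. They are written 5′ to 3′ in the sense of the transcript, in lower case throughout, since no part of them is singled out. Positions are on the mouse build mm9 as the files give them, at chr3:157560183-157560242, chr6:72385926-72385985 and chr15:78230212-78230271, each on the minus strand.
*Cth* A_55_P1959923: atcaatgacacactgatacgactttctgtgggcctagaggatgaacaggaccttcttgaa
*Mat2a* A_55_P2095047: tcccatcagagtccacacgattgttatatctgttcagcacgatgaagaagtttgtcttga
*Tst* A_55_P2025468: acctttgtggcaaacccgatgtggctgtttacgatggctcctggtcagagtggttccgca
All 3 can be read in at least 1 frame without a stop codon, as can 12 of the 15 probes, and 4 of the 15 (of *Ahcy*, *Mpst*, *Sqrdl* and *Suox*) hold AATAAA, the usual polyadenylation signal. No member probe shared more than 16 bases in a row with an array probe of another gene name, on either strand. Of the 15 probes, 14 carried an accession that RefSeq pairs with the gene, under the symbol *Sqor* for *Sqrdl*, and the accession of 1 *Ahcy* probe (A_55_P2000938) did not match. Exon and UTR borders on mm9 were not used here.

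Levels below are log2 intensities relative to the array's own 75th percentile, so that 0 is a probe as bright as that percentile, and differences are HFD minus ND on the same scale with the standard error (SE) of the fit over all probes. Every one of the 15 probes was well above background on all 6 arrays. Of them, 8 were lower in all HFD hearts than in any ND heart, 2 were higher in all HFD hearts, and 5 overlapped. Over all 27590 probes tested the hearts of the diets did not overlap at 18.9%, with 11.1% lower and 7.89% higher in HFD. An unadjusted p below 0.05 was given by limma for 9 of the 15 probes (8 lower and 1 higher, from 7 genes) and by the methods' t-test for 9, and neither called any of them after Benjamini-Hochberg adjustment. The same shares of all probes were 11.9% at the unadjusted threshold, 6.63% lower and 5.24% higher, and 0.0145% (4 probes) after the adjustment. Nothing is read from these counts, because the set was chosen with this contrast known. The median difference of the 15 probes was -0.20 and that of all probes tested was -0.01. Without *Cth*, the 13 other probes had a median of -0.07. Among those 13, 6 probes of 5 genes (*Cbs*, *Mpst*, *Ethe1*, *Tst* and *Suox*) were lower without overlap and 2 probes of *Mat2a* were higher without overlap.

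**Figure D1:**
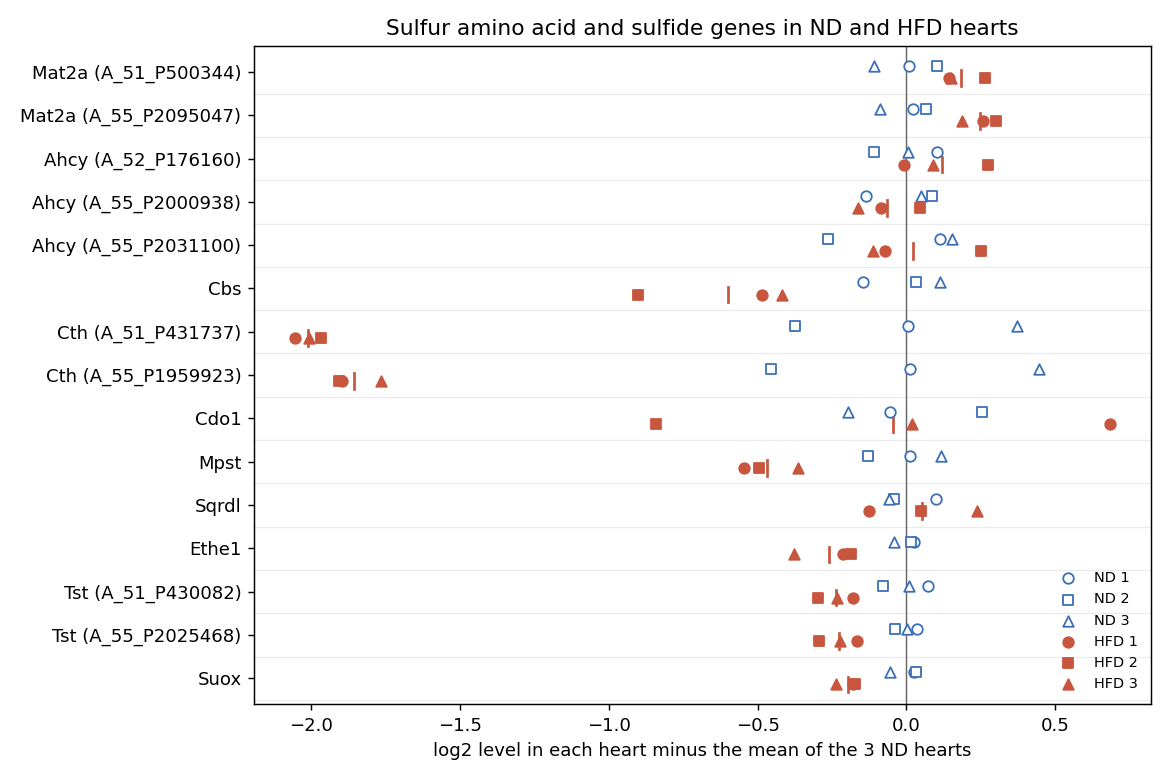
Log2 level of each of the 15 probes in each heart, minus the mean of the 3 ND hearts at that probe (x axis), with 1 row per probe (y axis). Open blue symbols are ND hearts, filled red symbols HFD hearts, the shape gives the heart's number, and the red bar is the HFD mean. The HFD means stand at -2.01 and -1.85 at *Cth* and between -0.60 and -0.20 at *Cbs*, *Mpst*, *Ethe1*, *Tst* and *Suox*, and the HFD hearts lie on both sides of 0 at *Cdo1*.

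*Cth* encodes cystathionine gamma-lyase, the enzyme that completes transsulfuration and also makes hydrogen sulfide from cysteine. At the probe at chr3:157557667-157557726 (minus strand), its level was -1.08, -1.46 and -0.72 in ND hearts 1 to 3 and -3.14, -3.06 and -3.10 in HFD hearts 1 to 3. At the other probe, whose sequence is given above, it was -1.10, -1.56 and -0.66 in the ND hearts and -3.00, -3.01 and -2.87 in the HFD hearts. ND 3 was highest and ND 2 lowest at both probes, and the HFD hearts lay close together, 1.59 and 1.31 below the lowest ND heart. The means differed by -2.01 (SE 0.19) and -1.85 (SE 0.22), which put HFD hearts at 24.9% and 27.7% of the ND level. The spread among ND hearts (SD of 0.37 and 0.45, n = 3) was wider than that among HFD hearts (SD of 0.04 and 0.08, n = 3). Ranked by size of decrease, these probes were 7th and 13th of the 27590 tested, a rank that follows from the choice of the gene. The probes lie 2516 bases apart on the genome and their differences agreed within 0.15.

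In intensity, *Cth* read 230, 175 and 290 in the ND hearts and 58.4, 54.5 and 63.6 in the HFD hearts at A_51_P431737, and 229, 163 and 301 against 64.3, 56.2 and 74.3 at A_55_P1959923. The HFD values are thus dim, and the size of the difference moved with the background correction: with normexp, which models the background and adds a constant before the logarithm, it was -1.32 and -1.20. The diets did not overlap under any of the 17 alternatives. Most of these kept the levels as they were or dropped 1 heart, and so could not have produced an overlap. Only another normalization or background correction, the authors' values, kept outlier spots or averaged probes could have done so. HFD 1 and HFD 2 lay on 1 row of the slide and the other hearts on the next, and on the row that held HFD 3 and all ND hearts the difference was -2.01 and -1.76. In whole hearts, fewer cells of a type and less RNA per cell cannot be told apart.

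*Cbs* encodes cystathionine beta-synthase, which makes the substrate of *Cth* and opens transsulfuration. Its probe at chr17:31749593-31749652 (minus strand) read -2.33, -2.16 and -2.08 in the ND hearts and -2.67, -3.09 and -2.61 in the HFD hearts. Every HFD heart was below every ND heart, and HFD 2 was the lowest. The difference was -0.60 (SE 0.15), or 66.0% of the ND level. It was -0.35 with normexp and -0.42 on the slide row of HFD 3. The intensities of 53.3 to 89.3 in HFD and 97.0 to 113 in ND hearts were low too.

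Upstream of these enzymes, *Mat2a* encodes the catalytic subunit of methionine adenosyltransferase outside the liver, which makes S-adenosylmethionine. Both of its probes separated the diets, with HFD higher. The probe at chr6:72382856-72382915 (minus strand) read 5.48, 5.58 and 5.36 in the ND hearts and 5.62, 5.74 and 5.62 in the HFD hearts. The probe whose sequence is given above read 1.58, 1.62 and 1.47 against 1.81, 1.86 and 1.74. The gap between the nearest hearts was 0.04 at the first and 0.12 at the second. The differences were 0.18 (SE 0.08) and 0.25 (SE 0.07), that is 1.14-fold and 1.19-fold, at probes 3070 bases apart.

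*Ahcy* encodes adenosylhomocysteinase, which removes the product of methylation and yields homocysteine. Its 3 probes overlapped between the diets and did not share a sign. Their differences were 0.12 (SE 0.10) at A_52_P176160 (chr2:154891321-154891380), -0.07 (SE 0.09) at A_55_P2000938 (chr2:154885047-154885106) and 0.02 (SE 0.15) at A_55_P2031100 (chr2:154894644-154894703), all on the minus strand. HFD 2 was the highest heart at A_52_P176160 and A_55_P2031100, with levels of -1.92 and -2.45, and ND 2 was the lowest at both, with -2.30 and -2.96.

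*Cdo1* encodes cysteine dioxygenase, the enzyme that commits cysteine to taurine and sulfate. Its level was -1.85, -1.54 and -1.99 in the ND hearts and -1.11, -2.64 and -1.78 in the HFD hearts, at a probe on the minus strand of chromosome 18. HFD 1 was the highest and HFD 2 the lowest of all hearts, with the ND hearts between them. The means differed by -0.05 (SE 0.38), an error larger than at any other member probe. Without HFD 1 the difference was -0.41 and without HFD 2 it was 0.35, so a single heart set its sign.

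The same 2 hearts stood at the ends of the range in the mean log2 level of markers of other tissues. For white and brown fat (10 genes, of which 7 were well above background on all arrays and *Lep*, the leptin gene of fat cells, on none), the mean log2 level was 0.69 in HFD 1, -2.40 in HFD 2 and -1.02 to -0.37 in the ND hearts. The summed level of that list, in multiples of the 75th percentile, was 227 to 241 in ND and 218 to 265 in HFD hearts, and it ran the other way, with HFD 1 lowest and HFD 2 highest, as did the log2 level of its member *Fabp4* (7.29 in HFD 1 and 7.67 in HFD 2). For atrial muscle (8 genes, 7 of them well above background on all arrays), the mean log2 level was 4.44 in HFD 1, -0.23 in HFD 2 and 1.86 to 3.68 in the ND hearts, and the summed level was 205 to 1003 in ND and 59.4 to 1186 in HFD hearts. The 7 smooth muscle genes, all well above background throughout, had their highest mean in HFD 1 (4.22) and their lowest in HFD 2 (2.94) as well. The part of these tissues in the *Cdo1* values was not tested.

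**Figure D2:**
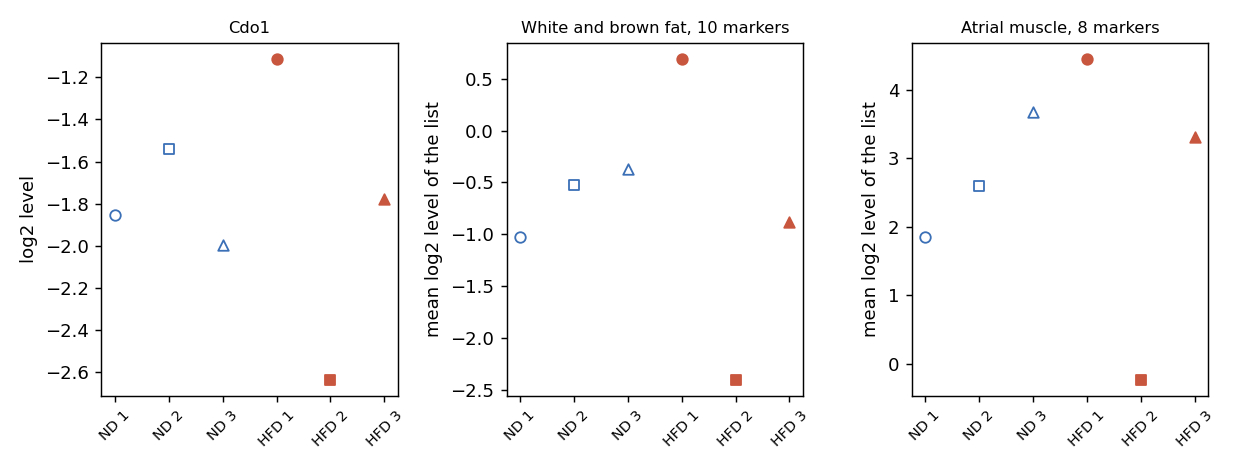
Log2 level of *Cdo1* (left) and mean log2 level of the 10 fat markers (middle) and the 8 atrial muscle markers (right), y axes, in each of the 6 hearts, x axis. Open symbols are ND and filled symbols HFD hearts, 1 symbol per heart, and each panel has its own scale. HFD 1 is the highest and HFD 2 the lowest heart in all 3 panels.

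*Mpst* encodes mercaptopyruvate sulfurtransferase, which makes hydrogen sulfide from a cysteine derivative by a route that needs neither *Cbs* nor *Cth*. Its probe at chr15:78244373-78244432 (plus strand) read 3.11, 2.97 and 3.21 in the ND hearts and 2.55, 2.60 and 2.73 in the HFD hearts. The diets did not overlap, with 0.24 between the nearest hearts. The difference was -0.47 (SE 0.09), or 72.3% of the ND level, and -0.36 on the slide row of HFD 3. All 3 genes whose enzymes make hydrogen sulfide were therefore lower in HFD hearts without overlap at each of their 4 probes, as were 11.1% of all probes tested. Nothing is read from this count, because it includes both probes of *Cth*, for whose lower level the set was proposed.

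Sulfide oxidation in mitochondria starts with sulfide:quinone oxidoreductase, the product of *Sqrdl*, which passes electrons to the respiratory chain. Its probe at chr2:122635222-122635281 (plus strand) read 4.67, 4.53 and 4.52 in the ND hearts and 4.45, 4.62 and 4.81 in the HFD hearts. HFD hearts held both the lowest and the highest value, and the difference was 0.05 (SE 0.11). On the slide row of HFD 3, its highest heart, it was 0.24, and without HFD 3 it was -0.04.

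*Ethe1* encodes the persulfide dioxygenase, the next step, and its loss causes an inherited sulfide toxicity. At chr7:25393395-25393454 (plus strand) it read 3.96, 3.95 and 3.90 in the ND hearts and 3.72, 3.75 and 3.56 in the HFD hearts. ND hearts lay close together and above every HFD heart. The difference was -0.26 (SE 0.08), 83.5% of the ND level, and -0.38 on the slide row of HFD 3, its lowest heart.

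*Tst* encodes thiosulfate sulfurtransferase (rhodanese), which moves sulfane sulfur between persulfide, thiosulfate and cyanide. At chr15:78230058-78230117 (minus strand) it read 2.31, 2.16 and 2.24 in the ND hearts and between 1.94 and 2.05 in the HFD hearts. At the probe whose sequence is given above, 154 bases away, it read 1.75, 1.67 and 1.71 against 1.55, 1.42 and 1.49. Both probes separated the diets, and both placed HFD 2 lowest and ND 1 highest. Their differences of -0.24 (SE 0.07) and -0.23 (SE 0.07) agreed within 0.01. *Tst* and *Mpst* encode related sulfurtransferases and lie next to each other on chromosome 15.

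*Suox* encodes sulfite oxidase, the molybdenum enzyme that makes sulfate from sulfite. At chr10:128106967-128107026 (minus strand) it read 3.74, 3.75 and 3.66 in the ND hearts and 3.54, 3.54 and 3.48 in the HFD hearts. The diets did not overlap, with 0.12 between the nearest hearts. The difference was -0.20 (SE 0.07), or 87.3% of the ND level.

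Across the 6 hearts, the levels of other members were set against the *Cth* probe of higher mean level (A_55_P1959923). These correlations describe 6 points that share their arrays and fall into the 2 diets, so that any probe separating the diets gives a large value. Pearson's r was 0.997 for the other *Cth* probe, 0.98 for *Mpst*, 0.93 for each *Tst* probe, 0.87 for *Cbs*, 0.84 for *Suox* and 0.82 for *Ethe1*. It was -0.90 and -0.97 for the probes of *Mat2a*. For *Cdo1* it was -0.02, for *Sqrdl* -0.19, and for the *Ahcy* probes between -0.41 and 0.27. *Mpst* followed *Cth* among the ND hearts too, with ND 3 highest and ND 2 lowest, and both *Mat2a* probes had the opposite order, with ND 2 highest and ND 3 lowest.

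**Figure D3:**
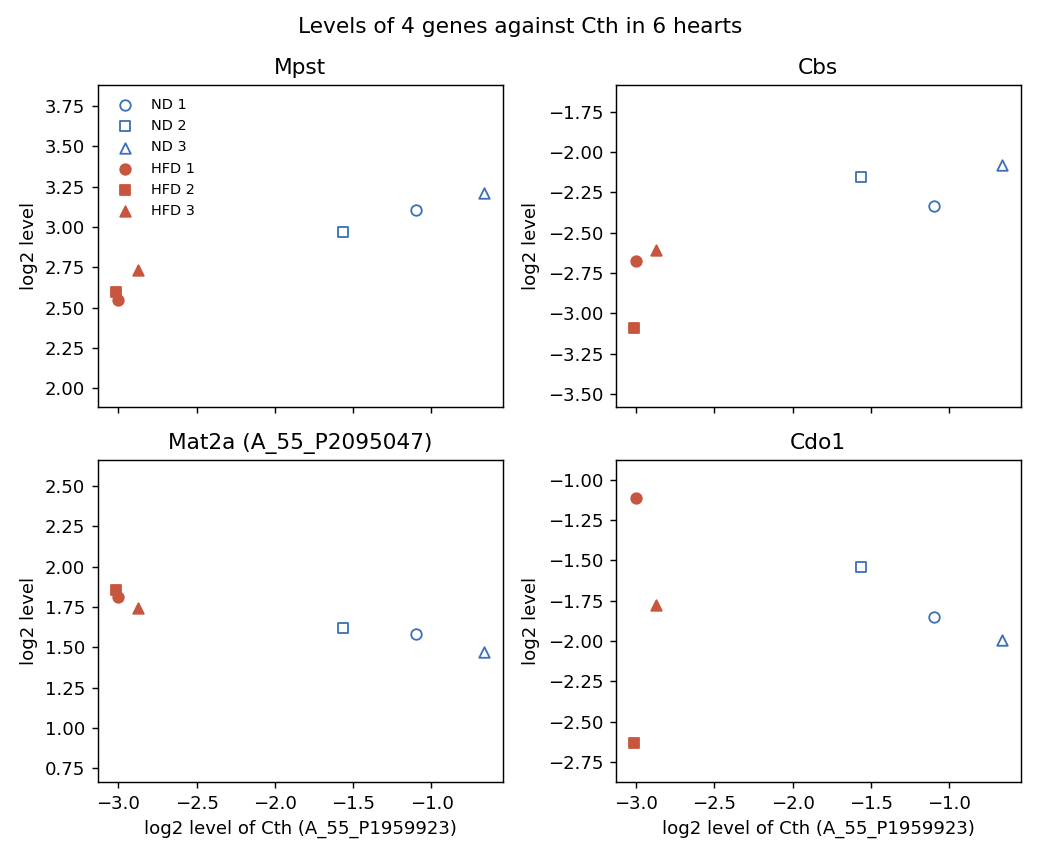
Log2 level of *Mpst*, *Cbs*, *Mat2a* and *Cdo1* (y axes, each spanning 2 log2 units) against that of *Cth* (x axis) in the 6 hearts, 1 symbol per heart. Open symbols are ND and filled symbols HFD hearts. *Mpst* goes up and *Mat2a* goes down along the *Cth* axis, HFD 2 is the low point of *Cbs*, and *Cdo1* shows no line (Pearson's r of -0.02).

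The *Cth* probe was also compared with 24905 probes that carry a gene name outside the set. Each was well above background and had a value on every array. The 5 genes with the highest r were *Rdh13*, *Creb3l4*, *Aldh6a1*, *Gstm2* and *Mpv17*, at 0.994 to 0.996. *Creb3l4*, a membrane-bound transcription factor, read -3.49, -3.66 and -3.35 in the ND hearts and -4.33, -4.32 and -4.19 in the HFD hearts, a difference of -0.78. *Gstm2*, a glutathione transferase, read 5.54, 5.45 and 5.64 against 5.26, 5.26 and 5.30, a difference of -0.27. *Aldh6a1*, a mitochondrial enzyme of valine breakdown, differed by -0.22, *Rdh13*, a mitochondrial retinol dehydrogenase, by -0.19 and *Mpv17*, an inner mitochondrial membrane protein, by -0.15. Each of these 5 was lower in every HFD heart and, as at *Cth*, was highest in ND 3 and lowest of the ND hearts in ND 2. This likeness follows from their choice by r with *Cth*.

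Around these members, 7 lists of neighbouring genes were examined at 1 probe per gene and tested in limma with Benjamini-Hochberg adjustment over all probes. They held 114 genes, of which 110 were on the array and 98 were tested. An unadjusted p below 0.05 was found for 19 of the 98 genes, 9 lower and 10 higher in HFD, against 12.2% of all 19511 genes tested. The methods' t-test gave 17, and neither test called any of the 98 after the adjustment. The median difference was -0.02 in these lists and -0.01 over all genes. The count of 19 fell to 11 when ND 2 was left out.

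**Figure D4:**
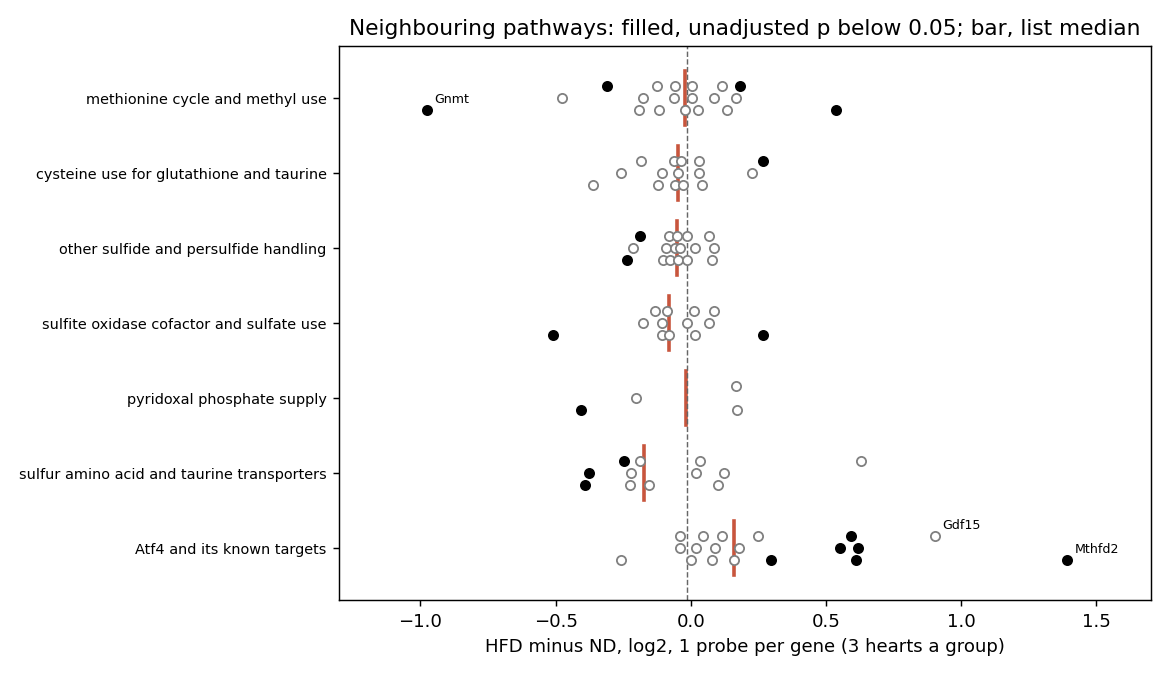
HFD minus ND on the log2 scale (x axis) for each tested gene of 7 neighbouring lists (y axis), 1 probe per gene. Filled points have an unadjusted limma p below 0.05, the red bar is the list's median, and the dashed line is the median of all genes. *Mthfd2* (1.39) and *Gnmt* (-0.97) lie farthest out, and the Atf4 list has the highest median (0.16).

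In the methionine cycle and methyl use, 2 of 19 genes were lower and 2 higher at the unadjusted threshold. *Gnmt*, glycine N-methyltransferase, which consumes S-adenosylmethionine, read -0.08, -0.29 and -0.30 in the ND hearts and -1.48, -0.96 and -1.15 in the HFD hearts. Its difference of -0.97 (SE 0.15) had a limma adjusted p of 0.135, with no overlap between the diets. The creatine enzyme gene *Gamt* was at -0.31 (SE 0.12, limma adjusted p = 0.405) and the DNA methyltransferase gene *Dnmt3a* at 0.18 (SE 0.06, limma adjusted p = 0.354).

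Of the genes that use cysteine for glutathione and taurine, 1 of 15 was below the threshold. This was *Oplah*, 5-oxoprolinase of the glutathione cycle, at 0.27 (SE 0.11, limma adjusted p = 0.413). *Ggt5*, which splits extracellular glutathione, was at -0.36 (SE 0.25), and *Dpep1*, a dipeptidase that acts after it, at -0.18 (SE 0.15), both with overlap.

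Other genes of sulfide and persulfide handling gave 2 of 17, both lower. *Got1*, the aspartate aminotransferase that also supplies mercaptopyruvate for *Mpst*, was at -0.23 (SE 0.08, limma adjusted p = 0.354) and *Txn2*, mitochondrial thioredoxin, at -0.19 (SE 0.07, limma adjusted p = 0.375), which was -0.02 when the gene's probes were averaged. *Glrx5*, a glutaredoxin of iron-sulfur cluster assembly, was at -0.10 (SE 0.07). Neither *Got1* nor *Txn2* overlapped between the diets, but they too were named for their small p, and 11.1% of all probes were lower without overlap.

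For the sulfite oxidase cofactor and sulfate use, 1 of 13 was lower and 1 higher. *Bpnt1*, a phosphatase that clears the by-product of sulfation, was at 0.27 (SE 0.07, limma adjusted p = 0.254) and *Sult1a1*, a sulfotransferase, at -0.51 (SE 0.15, limma adjusted p = 0.309), which was -0.23 on the slide row of HFD 3. *Slc26a1*, a sulfate carrier, was at -0.18 (SE 0.07). Of the 4 genes that supply pyridoxal phosphate, the cofactor of both transsulfuration enzymes, *Alpl* was at 0.17 (SE 0.08, limma adjusted p = 0.503) and *Pdxp* at 0.17 (SE 0.16, limma adjusted p = 0.730).

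Transporters of sulfur amino acids and taurine gave 3 of 12, all lower, with a list median of -0.17. Over the whole list 7 differences were below 0 and 5 above. Of all 19511 genes, 1397 were lower at that threshold. The neutral amino acid carriers *Slc1a5* and *Slc1a4* were at -0.39 (SE 0.10, limma adjusted p = 0.259) and -0.25 (SE 0.07, limma adjusted p = 0.309). *Slc7a8*, a subunit of an L-type carrier, was at -0.38 (SE 0.11, limma adjusted p = 0.313), with -0.22 under normexp and -0.18 on the slide row of HFD 3. None of the 3 overlapped between the diets, but they were named for their small p. Of all probes tested, 11.1% were lower in HFD without overlap.

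*Cth* is among the genes that the transcription factor Atf4 is known to induce when amino acids run short. *Atf4* and other known targets were looked at for that reason. Of 19 tested, *Atf4* included, 6 were higher and none lower at the unadjusted threshold, 16 of the 19 differences were above 0, and the median was 0.16. Over all 19511 genes, 989 were higher and 1397 lower at that threshold, 9099 differences were above 0, and the median was -0.01. *Mthfd2*, a mitochondrial folate enzyme, read -2.43, -2.65 and -2.86 in the ND hearts and -1.23, -1.11 and -1.42 in the HFD hearts. Its difference of 1.39 (SE 0.14) had a limma adjusted p of 0.0784, which ranged from 0.0208 to 0.349 over the alternatives, and with normexp the difference was 0.87. *Psat1* of serine synthesis was at 0.62 (SE 0.10, limma adjusted p = 0.145) and *Asns*, asparagine synthetase, at 0.55 (SE 0.10, limma adjusted p = 0.158). The 3 remaining genes of that count, *Phgdh* (0.61), *Pycr1* (0.59) and *Atf5* (0.30), are named because they complete it. *Atf4* itself was at 0.25 (SE 0.14, limma adjusted p = 0.544). *Cth* lay on the other side of 0 from these 6 genes. That follows from the choice of *Cth* as lower and of these 6 as higher in HFD. Nothing is read from it, and the difference between them was not tested.

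Heart muscle markers were present throughout, with all 10 well above background on all arrays and a summed level of 3958 to 4055 in ND and 3471 to 4233 in HFD hearts. Because transsulfuration genes are abundant in liver and kidney, markers of both were read. No array read *Alb*, *Apoa1*, *Fgb*, *Cps1* or *Hpx*, 5 of the 10 liver genes, well above background. The other 5 (*Apoa2*, *Ttr*, *Serpina1a*, *Ahsg* and *Tat*) were well above background on all arrays. The summed level of the liver list was 11.3 to 12.5 in ND and 7.29 to 12.0 in HFD hearts. Of the 8 kidney tubule genes, *Umod*, *Slc12a1*, *Lrp2* and *Kap* were well above background on no array, and 3 were on all arrays. Their summed level was 1.16 to 1.56 in ND and 1.16 to 1.46 in HFD hearts. Red cell markers (8 genes, 6 well above background on all arrays) summed to 630 to 788 in ND and 407 to 557 in HFD hearts, without overlap. Of 9 skeletal muscle markers, 4 were well above background on all arrays. The summed level of the 9 was 198 to 218 in ND and 137 to 144 in HFD hearts, without overlap. *Acta1* and *Ckm* made up nearly all of that sum, at mean log2 levels of 6.61 and 6.69 in ND hearts. There *Tnni2* and *Tnnt3* were far dimmer, at 1.46 and -2.91. *Myh4*, *Myh2*, *Myh1*, *Actn3* and *Mylpf* did not enter the fit, and no array read *Mylpf* well above background. The sum thus follows *Acta1* and *Ckm*, and whether the amount of skeletal muscle differed was not tested. The part of the red cell and skeletal muscle markers in the lower levels of *Cth*, *Cbs*, *Mpst*, *Ethe1*, *Tst* and *Suox* was not tested. Summed levels of endothelial and macrophage markers overlapped between the diets, with 51.2 to 61.5 and 62.0 to 67.8 over all hearts.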

How the data were processed

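RNA from 3 ND and 3 HFD hearts was measured on 6 one-colour Agilent arrays. The authors deposited intensities from Agilent Feature Extraction 10.7, with background and a spatial trend subtracted within each array and no normalization between arrays. Unsubtracted intensity, deposited for each spot and its surroundings, served the normexp alternative (offset 50). Processed log2 values, likewise deposited and made by a method not given in the sources used here, were an alternative too. Probe positions are on mm9.

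Control spots and the 127 to 190 outlier spots per array were left out (no spot was saturated), spots of 1 probe were averaged, and log2 intensity minus the array's 75th percentile of all spots was used. A probe entered the fit if all arrays of ND, or all of HFD, read it well above background and each diet had at least 2 values. Fits were made in limma 3.58.1 (R 4.3.3, lmFit and eBayes, two-sided), with Benjamini-Hochberg adjustment. The packages data.table (1.17.8), jsonlite (2.0.0) and statmod (1.5.0), Python 3.11.15 and matplotlib 3.10.9 were used. The fit was tested on simulated data. On each array 49.2% to 53.0% of probes passed as well above background, and 3 hearts a group limit the precision. Arrays of a group correlated at 0.983 to 0.989 and none were identical. Wider lists were read at the probe of the highest mean level. Named are all members, the 3 genes of each wider list with the smallest p, and the 5 probes most like *Cth*, and the separate results of some list members are not reported here. HFD 1 and HFD 2 lay on the other slide row from the rest. Members and lists were chosen with earlier results of these data known.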

Additional observations from a re-analysis of the deposited data

How the results depend on the processing

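The lower level of *Cth* in HFD kept its direction under all 17 alternatives, most of which could not reverse it because the hearts of the diets did not overlap. With normexp background correction it was -1.32 at A_51_P431737 and -1.20 at A_55_P1959923, and leaving out 1 heart at a time gave -2.20 to -1.82 and -2.08 to -1.63. The count of genes of the wider lists at an unadjusted p below 0.05, 19 as reported, ran from 11 (without ND 2) to 22 (without HFD 1), and was 16 with the replicate number as a block. The numbers were not taken as pairs: deviations of same-numbered hearts correlated at -0.15, 0.15 and 0.19, and 3 of 6 hearts correlated best with their own number. With the block, 6 wider genes were higher in HFD, as against 10 as reported, and *Cth* was unchanged in value. Past the adjustment was *Mthfd2* with normexp (adjusted p = 0.0339) and with robust variances that follow intensity (adjusted p = 0.0208), and *Fgf21*, which was not among the 98 genes tested, without HFD 1 (adjusted p = 0.0200). *Fgf21* entered that fit only because the remaining HFD hearts, where it was higher by 3.28, all read it well above background. Nothing is read from its pass. The slide row as a term left HFD 3 as the only HFD heart in the contrast, put *Ggt5* at 0.13 and *Dpep1* at 0.12, and lowered the count of all probes at an unadjusted p below 0.05 from 3275 to 2136. Without ND 1 that count was 2181. No called direction reversed. The 3 hearts a group and the dim signals of *Cth* and *Cbs* in HFD limit these values.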
